A study of Sus scrofa with 63 samples.

Results

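The subunits of the vacuolar proton pump ATP6V1D, ATP6V1F, ATP6V1H, ATP6V0D1 and TCIRG1 were followed in porcine liver from late gestation to adult age. All probe-sets that the array annotation assigns to these symbols are described. This gave 7 of the 23935 probe-sets that are not controls, and 5 of the 6765 genes with a symbol of their own. ATP6V1D, ATP6V1F and ATP6V1H had 1 probe-set each, and ATP6V0D1 and TCIRG1 had 2 each. The study had listed these genes under oxidative phosphorylation from comparisons that include these same animals, so their number of changes is not independent evidence of a direction.

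Liver RNA of German Landrace pigs was hybridised to 63 Affymetrix porcine arrays, 1 per animal. All animals were offspring of gilts that received a gestational high protein diet (HP offspring), and the values describe development after such a diet. There were 16 fetuses taken at 94 days post conception (94 dpc), 16 piglets at 1 day post natum (1 dpn), 15 weaning piglets at 28 dpn and 16 adult pigs at 188 dpn. Offspring of sows on the adequate protein diet (AP) were not analysed here. The fetuses came from a separate experiment with Caesarean section of anesthetized sows. They and the piglets at 1 dpn were killed by injection, but with different agents. The pigs at 28 and 188 dpn were fasted overnight and killed by electronarcosis and exsanguination. The lightest and heaviest sibs were taken at 94 dpc and 1 dpn only, and the later stages had been suckled by foster sows, with the males castrated. In period I (1 dpn against 94 dpc) age therefore cannot be told apart from birth, the anesthesia of the sows, the agent of killing and the separate experiment. In period II (28 dpn against 1 dpn) age cannot be told apart from fasting, killing, weight selection, fostering and castration. The stages of period III (188 dpn against 28 dpn) shared fasting, killing, fostering and castration. The adults had been individually reared on standard diets since weaning, so age cannot be told apart from feed and housing in period III. Sib pairs were taken at each stage, so the animals are not all independent and p-values may be too small.

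The vacuolar proton pump is a rotary machine in the membrane of lysosomes, endosomes and other acid compartments. Its V1 sector lies in the cytosol and splits ATP, and its V0 sector lies in the membrane and carries protons into the organelle. Acid lysosomes are needed by hepatocytes for autophagy and by liver macrophages for the breakdown of engulfed material. ATP6V1D is the central stalk that turns within the V1 sector, ATP6V1F is a small subunit at that stalk, and ATP6V1H is a regulatory subunit at the junction of both sectors. ATP6V0D1 joins the turning stalk to the membrane sector. TCIRG1 is an isoform of the large membrane subunit a, and in human and mouse it is best known from osteoclasts and immune cells.

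Values are log2 signals as deposited, and a change is the mean of the later stage minus the mean of the earlier stage on that scale. A change was called higher or lower where limma gave an adjusted p (Benjamini-Hochberg) under 0.05, over all probe-sets tested in the comparison. Period I compared 1 dpn with 94 dpc, period II compared 28 dpn with 1 dpn, period III compared 188 dpn with 28 dpn, and the whole span compared 188 dpn with 94 dpc. Neighbouring periods share the arrays of a stage, so their values are given side by side only.

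The tissue label was borne out, since all 7 hepatocyte markers on the array were above background on every array. Background was the 95th percentile of 23 control probe-sets on each array, and every member probe-set was above it on all 63 arrays. The array median fell with age, with stage means of 7.38, 7.23, 6.83 and 6.72 at 94 dpc, 1 dpn, 28 dpn and 188 dpn. Centring each array on the median of the probe-sets tested raised the median change by 0.10 in periods I and III, by 0.23 in period II and by 0.45 over the whole span. On the deposited scale the calls of all probe-sets were 2940 higher and 4369 lower in period I, 3764 and 5611 in period II, 1526 and 2789 in period III, and 3607 and 7104 over the whole span. After centring they were 3644 and 3514, 5169 and 4291, 2372 and 1848, and 5616 and 4871. After quantile normalization they were 3453 and 3685, 4769 and 4482, 1965 and 2239, and 5139 and 5307. Changes of the members relative to the array median are therefore given beside those on the deposited scale.

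**Figure D1:**
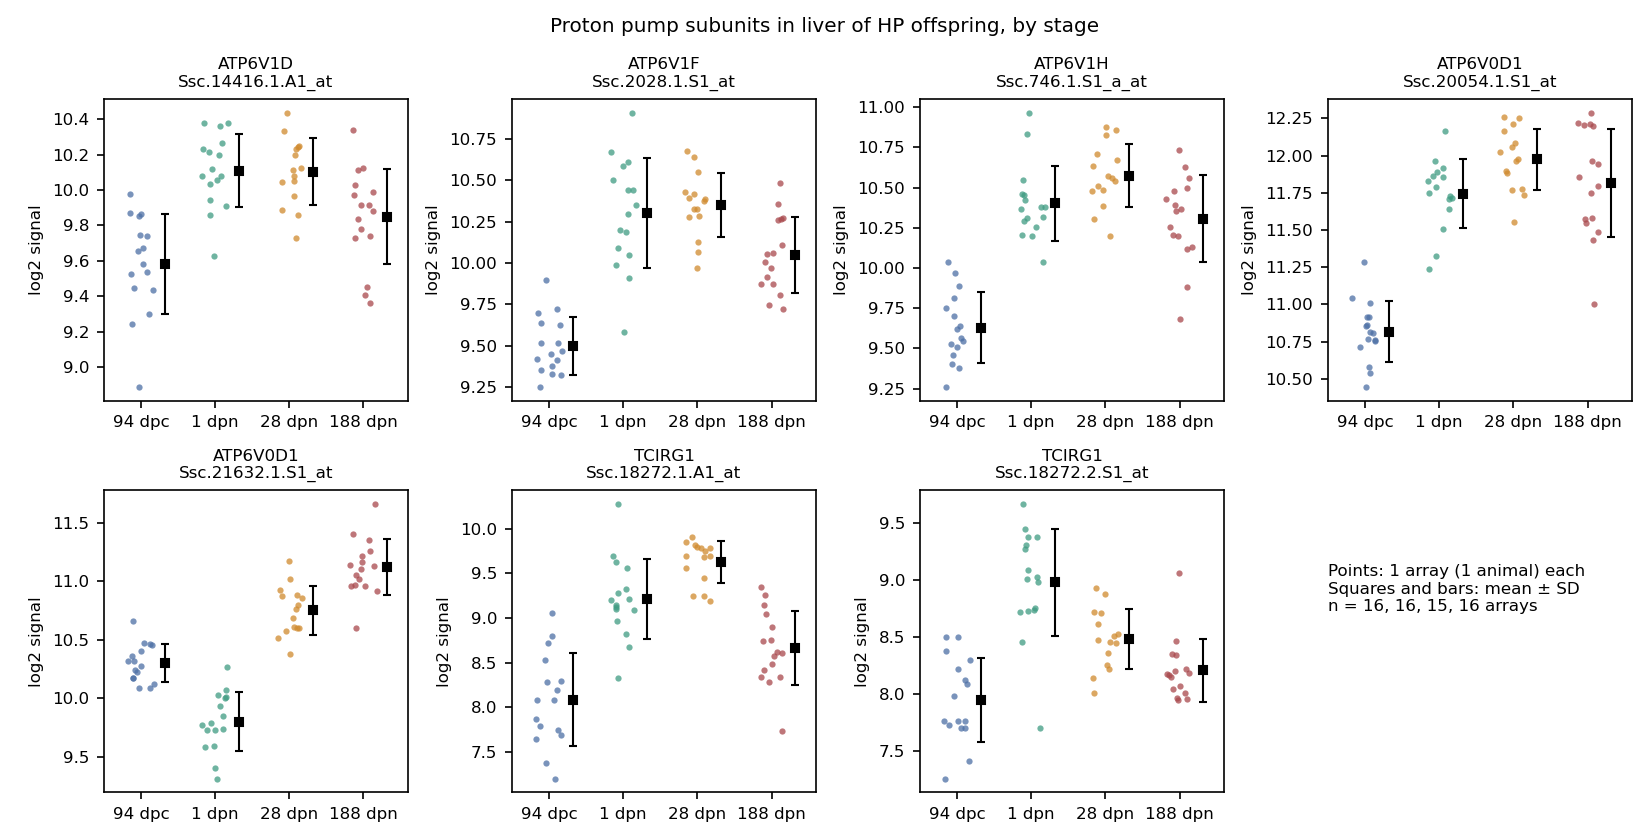
Log2 signal of the 7 member probe-sets in each of 63 arrays, by stage, with the stage mean ± SD as squares and bars. The lowest stage is 94 dpc for 6 probe-sets and 1 dpn for ATP6V0D1 Ssc.21632.1.S1_at.

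Between 94 dpc and 1 dpn 6 of the 7 member probe-sets rose and 1 fell. Among all 12839 probe-sets tested in period I, 22.9% were called higher and 34.0% lower, and the median change was −0.10. The rises lay between 0.53 for ATP6V1D and 1.13 for TCIRG1, and the fall was that of the second probe-set of ATP6V0D1. Each of these 7 calls stood under quantile normalization (26.9% higher and 28.7% lower of all probe-sets) and under centring (28.4% and 27.4%). The difference between the 3′ and 5′ ends of the RNAs added before labelling lay between 0.995 and 1.25 at 1 dpn, against 0.227 to 0.456 at 94 dpc, and so did not overlap between these stages. Labelling and stage cannot be told apart in period I. The summed signal of 11 macrophage markers had a median of 14.94 at 1 dpn and 14.37 at 94 dpc, and 5 of these markers were higher and 0 lower (22.9% and 34.0% of all probe-sets). Other cell types moved further. Red cell precursor markers were 0 higher and 6 lower of 6, with summed medians of 11.22 at 1 dpn and 14.45 at 94 dpc and no overlap between the arrays, and neutrophil and myeloid precursor markers were also 0 higher and 6 lower of 6, with 10.68 at 1 dpn and 12.49 at 94 dpc. Of the 7 hepatocyte markers 1 was higher and 5 lower, and 4 and 2 after quantile normalization. The part of these cell types in the result was not tested. In bulk liver, fewer cells of a type and less RNA per cell cannot be told apart.

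Of the V1 subunits, ATP6V1D (Ssc.14416.1.A1_at) ranged between 8.89 and 9.98 around a median of 9.62 at 94 dpc, between 9.63 and 10.38 around 10.10 at 1 dpn, between 9.73 and 10.44 around 10.12 at 28 dpn, and between 9.36 and 10.34 around 9.90 at 188 dpn. The fetuses were lowest, 1 dpn and 28 dpn were highest and alike in their ranges, and all stages overlapped. At 1 dpn ATP6V1D averaged 10.11 ± 0.21, against 9.58 ± 0.28 at 94 dpc (SD, n = 16 each), a rise of 0.53 (SE 0.09, adjusted p = 1.23e-05, limma). At 28 dpn it averaged 10.10 ± 0.19 (SD, n = 15), which differed from 1 dpn by −0.01 (SE 0.08, adjusted p = 0.952). At 188 dpn it averaged 9.85 ± 0.27 (SD, n = 16), a fall by 0.25 relative to 28 dpn (SE 0.09, adjusted p = 0.0241). Both later results depended on scaling. Relative to the array median ATP6V1D was higher by 0.22 at 28 dpn than at 1 dpn (adjusted p = 0.0185), and its change of −0.15 in period III was no longer called (adjusted p = 0.179).

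ATP6V1F (Ssc.2028.1.S1_at) ranged between 9.25 and 9.90 around a median of 9.46 at 94 dpc, between 9.58 and 10.91 around 10.32 at 1 dpn, between 9.97 and 10.68 around 10.37 at 28 dpn, and between 9.72 and 10.48 around 10.03 at 188 dpn. All 15 arrays at 28 dpn stood above all 16 fetuses, as in 8.87% of all probe-sets tested between these stages. The widest spread was at 1 dpn. ATP6V1F averaged 10.30 ± 0.33 at 1 dpn and 9.50 ± 0.17 at 94 dpc (SD, n = 16 each), a rise of 0.80 (SE 0.10, adjusted p = 2.41e-08), which is 1.74-fold. In period II the change was 0.05 (SE 0.10, adjusted p = 0.675), and in period III ATP6V1F fell by 0.30 (SE 0.08, adjusted p = 0.00408). The last fall ended relative to the array median, where the change was −0.20 (adjusted p = 0.0867), while the change of period II was then 0.28 (adjusted p = 0.0224).

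ATP6V1H (Ssc.746.1.S1_a_at) ranged between 9.26 and 10.04 around a median of 9.59 at 94 dpc, between 10.04 and 10.97 around 10.37 at 1 dpn, between 10.20 and 10.88 around 10.56 at 28 dpn, and between 9.68 and 10.73 around 10.36 at 188 dpn. The arrays of 1 dpn and 94 dpc did not overlap, as in 1.85% of all probe-sets tested in period I for a rise. ATP6V1H averaged 10.40 ± 0.23 at 1 dpn and 9.63 ± 0.22 at 94 dpc (SD, n = 16 each), a rise of 0.77 (SE 0.09, adjusted p = 3.51e-09). At 28 dpn, with a mean of 10.57 ± 0.20 (SD, n = 15), it differed from 1 dpn by 0.17 (SE 0.08, adjusted p = 0.0662), and this was called under quantile normalization (0.20, adjusted p = 0.0332) and under centring (0.40, adjusted p = 0.000174). In period III it fell by 0.27 (SE 0.09, adjusted p = 0.0189), a change of −0.16 relative to the array median (adjusted p = 0.147).

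**Figure D2:**
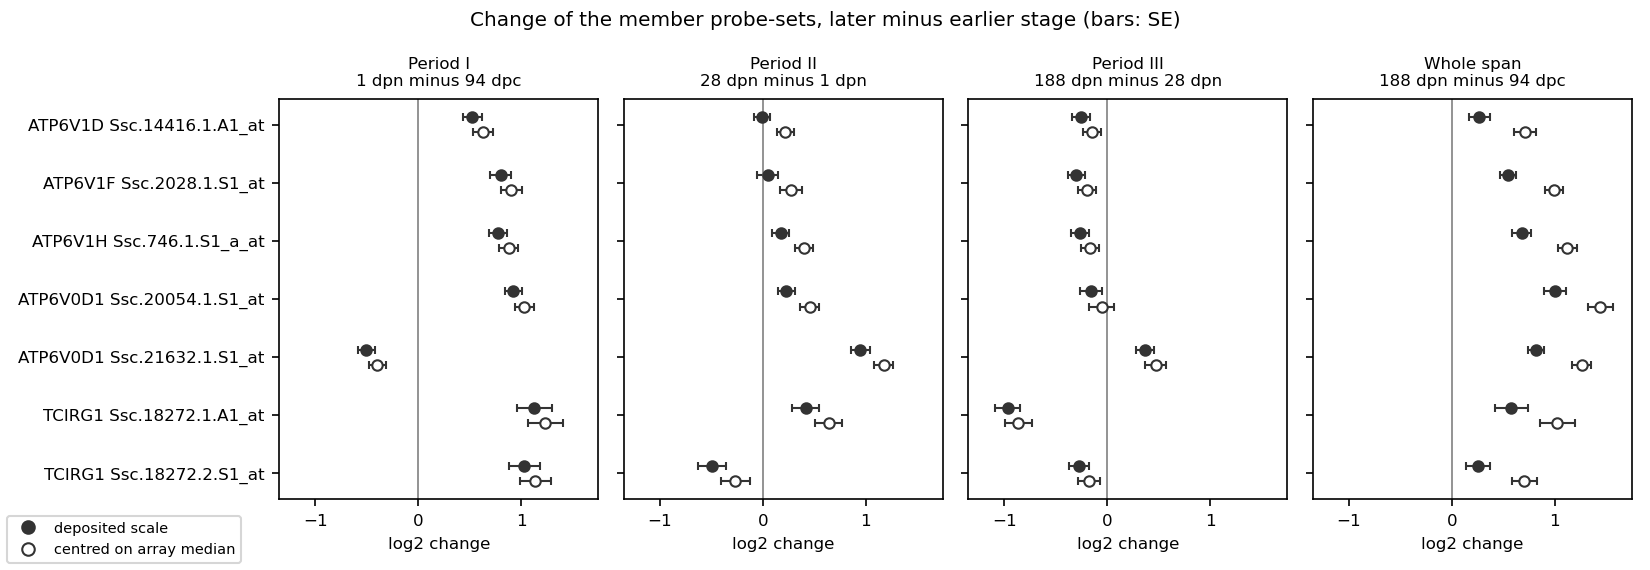
Change of the 7 member probe-sets on the log2 scale in each period and over the whole span, later minus earlier stage, with bars of 1 SE. Filled circles are on the deposited scale and open circles relative to the array median, and the open circles lie to the right throughout.

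Over the weeks of suckling, 3 of the 7 member probe-sets rose, all of V0 genes, and 1 fell, against 28.8% called higher and 42.9% called lower among all 13078 probe-sets tested in period II and a median change of −0.14. The 3 probe-sets of V1 genes were not called in either direction. Relative to the array median 6 of the 7 were higher and 0 lower (39.5% and 32.8% of all probe-sets), and after quantile normalization 3 and 0 (36.5% and 34.3%). The calls after quantile normalization included ATP6V1H of the V1 sector and not the first probe-set of ATP6V0D1. The study lists ATP6V1D, ATP6V1F, ATP6V1H and TCIRG1 as increased in this period in HP offspring. It used another normalization (GCRMA) and a mixed model, so its calls and those here are on unlike scales. At 1 dpn it lists ATP6V0D1 and TCIRG1 as lower in HP than in AP offspring, a comparison not made here. The difference between the 3′ and 5′ probe-sets of actin lay between 3.15 and 4.02 at 28 dpn, against 0.754 to 3.16 at 1 dpn. This measure and stage can hardly be told apart in period II. Markers of several cell types also moved in period II. The summed signal of the macrophage markers had a median of 16.03 at 28 dpn and 14.94 at 1 dpn, with no overlap between the arrays, and 7 of the 11 were higher and 0 lower. T and NK cell markers were 3 higher and 0 lower of 4 tested. The summed signal of the 8 on the array had medians of 10.98 at 28 dpn and 8.94 at 1 dpn, with no overlap between the arrays. At 1 dpn only 1 to 4 of these 8 were above background on an array, so the size of this rise was not measured. Red cell precursor markers were 4 higher and 1 lower of 5 tested, with 12.56 at 28 dpn and 11.22 at 1 dpn. Other lists had more falls than rises. Of the 7 hepatocyte markers 1 was higher and 4 lower, and 2 and 2 after quantile normalization. Neutrophil and myeloid precursor markers were 0 higher and 2 lower of 3 tested. Stellate and endothelial markers were 1 and 2 of 6, and bile duct markers 0 and 1 of 3. The part of these cell types in the result was not tested.

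ATP6V0D1 was measured by a pair of probe-sets that moved apart between 94 dpc and 1 dpn. The first (Ssc.20054.1.S1_at) ranged between 10.44 and 11.29 around a median of 10.81 at 94 dpc, between 11.24 and 12.16 around 11.77 at 1 dpn, between 11.56 and 12.26 around 11.98 at 28 dpn, and between 11.00 and 12.29 around 11.82 at 188 dpn. The second (Ssc.21632.1.S1_at) ranged between 10.09 and 10.66 around 10.29 at 94 dpc, between 9.31 and 10.26 around 9.78 at 1 dpn, between 10.38 and 11.17 around 10.76 at 28 dpn, and between 10.60 and 11.66 around 11.12 at 188 dpn. The first was thus lowest in fetuses and near its later level already at 1 dpn, whereas the second was lowest at 1 dpn and highest in adults.

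At 1 dpn the first probe-set of ATP6V0D1 averaged 11.74 ± 0.23, against 10.82 ± 0.20 at 94 dpc (SD, n = 16 each), a rise of 0.93 (SE 0.08, adjusted p = 4.41e-11) or 1.90-fold. The second averaged 9.80 ± 0.25 at 1 dpn and 10.30 ± 0.16 at 94 dpc, a fall by 0.50 (SE 0.08, adjusted p = 4.06e-06). In 15 of 16 newborn piglets the first probe-set was above all fetuses, and in 15 of 16 the second was below all fetuses, each 1 piglet short of no overlap, which 1.85% of all probe-sets had for a rise and 3.20% for a fall. From there the second rose, by 0.95 in period II (SE 0.09, adjusted p = 6.51e-11) and by 0.37 in period III (SE 0.09, adjusted p = 0.001), and the arrays of 28 dpn and 1 dpn did not overlap (4.95% of all probe-sets tested for a rise). The first rose by 0.23 in period II (SE 0.09, adjusted p = 0.0176), and its change of −0.16 in period III was not called (SE 0.11, adjusted p = 0.27). The small rise of the first probe-set in period II ended after quantile normalization (0.08, adjusted p = 0.445), whereas all 3 calls of the second stood under both scalings.

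Because both probe-sets were read on the same arrays, a shift that is constant over an array, such as centring, cancels in their difference, whereas quantile normalization can move them unequally. The size of such a difference carries no level, since probe-sets bind with unequal strength, but its change between stages can be tested. The first minus the second probe-set of ATP6V0D1 averaged 1.94 ± 0.35 at 1 dpn (0.97 to 2.43) and 0.52 ± 0.24 at 94 dpc (0.08 to 0.83; SD, n = 16 each), and no array of one stage reached into the range of the other. The change of 1.43 had an adjusted p of 2e-05 in a two-sided permutation test, adjusted over 6 such tests, where 1e-05 is the smallest p that the permutations can give. At 28 dpn the difference averaged 1.22 ± 0.25 and at 188 dpn 0.70 ± 0.29, changes of −0.72 (adjusted p = 2e-05) and −0.53 (adjusted p = 4.8e-05). The probe-sets of ATP6V0D1 therefore changed unequally in all 3 periods. The difference between the 3′ and 5′ probe-sets of actin had stage means of 2.44, 1.59, 3.66 and 4.10 at 94 dpc, 1 dpn, 28 dpn and 188 dpn. It was lowest at 1 dpn and had the same order of stages as the means of ATP6V0D1 Ssc.21632.1.S1_at. The difference of GAPDH had stage means of 1.09, 0.54, 0.76 and 0.66, also lowest at 1 dpn but highest at 94 dpc. The added RNAs had 0.33, 1.12, 1.35 and 1.05, lowest at 94 dpc. The part of these measures in the result was not tested.

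**Figure D3:**
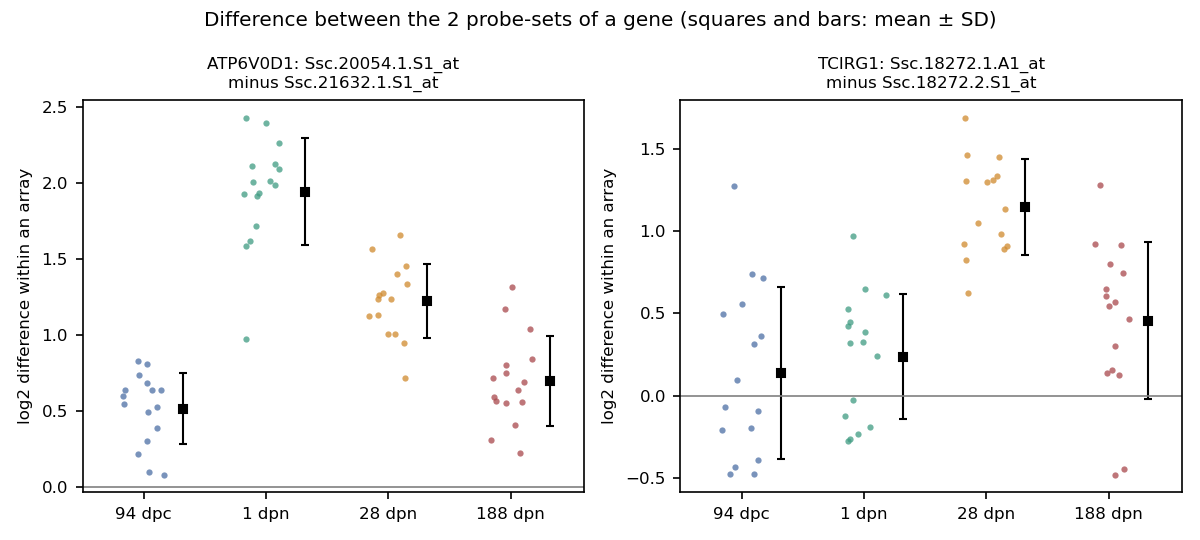
Log2 difference within each array between the first and the second probe-set of ATP6V0D1 (left) and of TCIRG1 (right), by stage, with mean ± SD. The difference of ATP6V0D1 is widest at 1 dpn and that of TCIRG1 is widest at 28 dpn.

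TCIRG1 had the largest rises of period I among the members. Its first probe-set (Ssc.18272.1.A1_at) ranged between 7.20 and 9.05 around a median of 8.08 at 94 dpc, between 8.33 and 10.28 around 9.17 at 1 dpn, between 9.19 and 9.90 around 9.70 at 28 dpn, and between 7.73 and 9.35 around 8.62 at 188 dpn. Its second (Ssc.18272.2.S1_at) ranged between 7.26 and 8.50 around 7.87 at 94 dpc, between 7.70 and 9.66 around 9.02 at 1 dpn, between 8.01 and 8.93 around 8.47 at 28 dpn, and between 7.95 and 9.06 around 8.17 at 188 dpn. Both were lowest in fetuses, where the first had an SD of 0.52.

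At 1 dpn the first probe-set of TCIRG1 averaged 9.21 ± 0.45, against 8.08 ± 0.52 at 94 dpc (SD, n = 16 each), and the rise of 1.13 (SE 0.17, adjusted p = 7.41e-07) is 2.19-fold. The second averaged 8.98 ± 0.47 at 1 dpn and 7.95 ± 0.37 at 94 dpc, a rise of 1.03 (SE 0.15, adjusted p = 4.59e-07). Both probe-sets of TCIRG1 thus rose in period I. In period II the first rose by 0.42 (SE 0.13, adjusted p = 0.00505), and the second fell by 0.49 (SE 0.14, adjusted p = 0.00194). The call of the second ended after quantile normalization (−0.29, adjusted p = 0.0731) and relative to the array median (−0.27, adjusted p = 0.0868). The difference between the probe-sets, in which centring cancels, averaged 1.15 ± 0.29 at 28 dpn (SD, n = 15) and 0.24 ± 0.38 at 1 dpn (SD, n = 16), a change of 0.91 (permutation test, adjusted p = 2e-05). The same difference was 0.14 ± 0.52 at 94 dpc, and its change of 0.10 in period I was not called (permutation test, adjusted p = 0.545).

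From weaning to adult age most member calls were falls on the deposited scale. Of the probe-sets that fell, only the first of TCIRG1 had been called higher in period II. In period III 5 of the 7 member probe-sets fell and 1 rose, against 22.5% called lower and 12.3% called higher among all 12418 probe-sets tested and a median change of −0.07. Relative to the array median 1 of the 5 falls remained called, that of the first probe-set of TCIRG1 (14.9% of all probe-sets lower). After quantile normalization 3 did (18% lower). TCIRG1 Ssc.18272.1.A1_at averaged 8.66 ± 0.42 at 188 dpn (SD, n = 16) and 9.63 ± 0.24 at 28 dpn (SD, n = 15), and the fall by 0.97 (SE 0.12, adjusted p = 1.65e-07) left 14 of 16 adults below all weaning piglets. The arrays of both stages overlapped for all 7 probe-sets, as they did for all but 0.395% of the tested probe-sets for a rise and 0.862% for a fall. The second fell by 0.28 (SE 0.10, adjusted p = 0.0272). The falls of TCIRG1 were unequal, by a change of −0.69 in the difference between its probe-sets (permutation test, adjusted p = 4.8e-05). With them fell 10 of the 11 macrophage markers, whose summed signal had a median of 15.55 at 188 dpn and 16.03 at 28 dpn. T and NK cell and red cell precursor markers were each 0 higher and 3 lower, of 4 and 5 tested. Of the 7 hepatocyte markers 0 were higher and 0 lower. The part of these cell types in the fall of TCIRG1 was not tested.

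**Figure D4:**
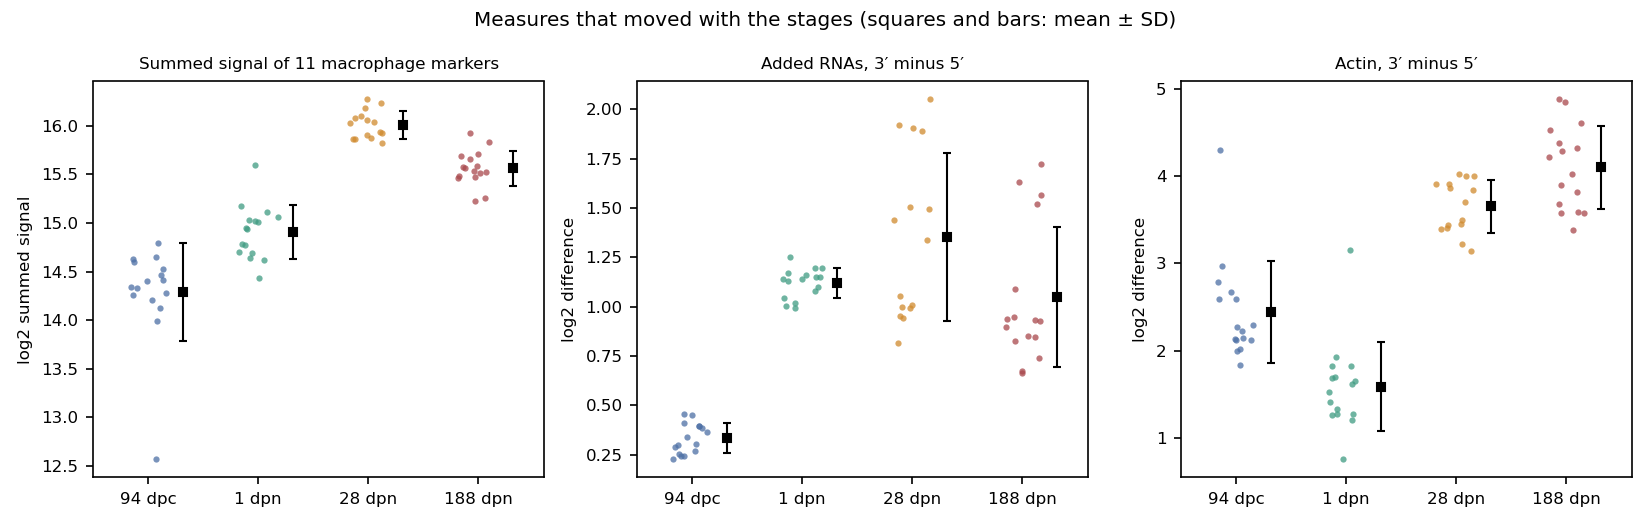
Log2 sum of 11 macrophage markers, 3′ minus 5′ difference of the added RNAs, and 3′ minus 5′ difference of actin in each array by stage, with mean ± SD. The macrophage sum is highest at 28 dpn, and the added RNAs fall into separate clusters at 28 and 188 dpn.

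The added RNAs fell into a pair of clusters at the later stages, with 8 arrays at 28 dpn and 4 at 188 dpn above a difference of 1.2, and 7 and 12 below it. With the cluster as a block, the 6 calls of period III stood and the first probe-set of ATP6V0D1 was called lower as well (−0.27, adjusted p = 0.0179). Within the clusters, TCIRG1 Ssc.18272.1.A1_at changed by −1.25 above 1.2 (adjusted p = 0.0015) and by −0.83 below it (adjusted p = 0.000712). ATP6V1H changed by −0.54 (adjusted p = 0.0182) and −0.20 (adjusted p = 0.221), ATP6V1F by −0.21 (adjusted p = 0.359) and −0.33 (adjusted p = 0.0377), and ATP6V1D by −0.30 (adjusted p = 0.198) and −0.23 (adjusted p = 0.194). TCIRG1 Ssc.18272.2.S1_at changed by −0.20 (adjusted p = 0.332) and −0.39 (adjusted p = 0.0578), and ATP6V0D1 Ssc.20054.1.S1_at by −0.45 (adjusted p = 0.0441) and −0.17 (adjusted p = 0.351). ATP6V0D1 Ssc.21632.1.S1_at changed by 0.29 (adjusted p = 0.25) and 0.36 (adjusted p = 0.0182). All 7 probe-sets kept their sign in both clusters, and the first of TCIRG1 was the one called in both.

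For period II each cluster of 28 dpn was set against all piglets of 1 dpn. The first probe-set of ATP6V0D1 changed by 0.38 in the 7 arrays below 1.2 (adjusted p = 0.0038) and by 0.10 in the 8 arrays above it (adjusted p = 0.417). The second rose by 0.99 and 0.91 (adjusted p = 9.86e-08 and 3.05e-07). The first probe-set of TCIRG1 changed by 0.36 (adjusted p = 0.0855) and 0.46 (adjusted p = 0.0174), and the second by −0.37 (adjusted p = 0.0897) and −0.60 (adjusted p = 0.00424). The opposite signs of the probe-sets of TCIRG1 were thus present in both clusters, with each call in 1 of them.

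Over the whole span all 7 member probe-sets were higher at 188 dpn than at 94 dpc, against 27.0% called higher and 53.1% called lower among all 13377 tested and a median change of −0.37. None of the 7 was without overlap, which 7.80% of all probe-sets were for a rise and 16.1% for a fall. ATP6V0D1 was higher by 1.00 (SE 0.11) and 0.81 (SE 0.08), with 15 of 16 adults above all fetuses for either probe-set. ATP6V1H was higher by 0.68 (SE 0.09), TCIRG1 by 0.58 (SE 0.16) and 0.26 (SE 0.12), ATP6V1F by 0.55 (SE 0.08), and ATP6V1D by 0.27 (SE 0.10), with adjusted p between 3.21e-11 and 0.0413. All 7 were higher as well under quantile normalization (38.4% of all probe-sets higher) and under centring (42% higher), by 0.70 to 1.44 when centred. The added RNAs did not overlap between these stages either, with 3′ minus 5′ differences of 0.665 to 1.72 at 188 dpn, against 0.227 to 0.456 at 94 dpc.

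The order of the stages differed among the members. By their means on the deposited scale, ATP6V1D ran 94 dpc, 188 dpn, 28 dpn and 1 dpn from low to high, of which 28 and 1 dpn were not called different. ATP6V1F and ATP6V1H ran 94 dpc, 188 dpn, 1 dpn and 28 dpn, where 28 and 1 dpn were not called different for either gene, nor 188 and 1 dpn for ATP6V1H (−0.09, adjusted p = 0.376). Relative to the array median, as given above, ATP6V1D, ATP6V1F and ATP6V1H were each called higher at 28 dpn than at 1 dpn. The first probe-set of ATP6V0D1 ran 94 dpc, 1 dpn, 188 dpn and 28 dpn, with 188 dpn called against neither neighbour (0.07 relative to 1 dpn, adjusted p = 0.567). The second ran 1 dpn, 94 dpc, 28 dpn and 188 dpn, and each neighbour differed. For TCIRG1 the order was 94 dpc, 188 dpn, 1 dpn and 28 dpn by the first and 94 dpc, 188 dpn, 28 dpn and 1 dpn by the second probe-set, with each neighbour called. In the comparison of 28 dpn with 94 dpc all 7 were higher, by 0.45 to 1.55 (29.2% of all probe-sets higher and 51.0% lower), and 4 of them did not overlap (8.87% for a rise, 14.2% for a fall). In that of 188 dpn with 1 dpn 4 were lower and 1 higher (46.1% and 27.6%), the higher one being ATP6V0D1 Ssc.21632.1.S1_at by 1.32 without overlap (5.00% for a rise, 8.97% for a fall). Relative to the array median that comparison gave 3 higher and 1 lower (41.3% and 33.2% of all probe-sets), with ATP6V1D, ATP6V1F and the first probe-set of TCIRG1 no longer called (adjusted p = 0.466, 0.52 and 0.215) and the signs of ATP6V1D and ATP6V1F turned (0.08 each). The 3′ minus 5′ difference of actin lay between 3.39 and 4.88 at 188 dpn, against 0.754 to 3.16 at 1 dpn. It did not overlap and cannot be told apart from stage in that comparison.

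The other genes of the pump did not follow one course. Of the 13 genes of the V1 list 10 were on the array, and 8, 8, 9 and 9 were tested in periods I, II and III and over the whole span. Of these 5 were higher and 1 lower in period I, 1 higher and 3 lower in period II, 1 higher and 5 lower in period III, and 4 higher and 3 lower over the whole span, members included. The median change of the V1 list was 0.39, 0.02, −0.27 and 0.01. Relative to the array median the counts of period II were 5 higher and 2 lower and those of period III 1 and 2, while quantile normalization gave 2 higher and 3 lower and 1 and 4. Of the 10 genes of the V0 list 6 were on the array and 5, 5, 4 and 5 were tested, with 4 higher and 0 lower in period I, 4 and 1 in period II, 0 and 1 in period III, and 4 and 1 over the whole span. Its median change was 0.78, 0.42, −0.09 and 0.58, and after quantile normalization 2 were higher and 1 lower in period II. These lists overlap with the members. Of all probe-sets 22.9% were higher and 34.0% lower in period I, and 28.8% and 42.9% in period II. In period III the shares were 12.3% and 22.5%, and over the whole span 27.0% and 53.1%. Relative to the array median they were 39.5% and 32.8% in period II and 19.1% and 14.9% in period III. After quantile normalization they were 36.5% and 34.3% in period II and 15.8% and 18% in period III.

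ATP6V1A, the catalytic subunit that splits ATP, took a course unlike that of the stalk subunits. Its brighter probe-set (Ssc.30829.1.S1_at) averaged 9.12 ± 0.44, 9.56 ± 0.32, 8.00 ± 0.33 and 7.71 ± 0.61 at 94 dpc, 1 dpn, 28 dpn and 188 dpn (SD, n = 16, 16, 15 and 16). It rose by 0.43 in period I (SE 0.14, adjusted p = 0.00727) and fell by 1.55 in period II (SE 0.12, adjusted p = 6.65e-13), with no overlap between 28 and 1 dpn (6.74% of all probe-sets for a fall). The other probe-set of ATP6V1A (Ssc.118.1.S1_at) fell by 2.30 in period II (SE 0.15, adjusted p = 2.29e-14), again without overlap, and both directions stood under both scalings. ATP6V1B2, the partner of ATP6V1A in the head, fell by 0.47 in period II and by 0.35 in period III by its brighter probe-set (adjusted p = 1.69e-06 and 0.000465). Its other probe-set was lower in period I (−0.46, adjusted p = 1.24e-05) and not called in period II (0.12, adjusted p = 0.216), where it was higher relative to the array median (0.34, adjusted p = 0.000625).

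Of the outer stalks, ATP6V1E1 rose by 0.36 in period I (adjusted p = 0.00193) and fell by 0.33 and 0.37 in periods II and III (adjusted p = 0.00105 and 2.16e-05), the fall of period II ending relative to the array median (−0.10, adjusted p = 0.295). ATP6V1G1 went the other way, with a fall by 0.39 in period I (adjusted p = 0.000828) and a rise of 0.41 in period II (adjusted p = 6.37e-06). ATP6V1C1, which ties the stalks to the membrane sector, rose by 0.53 in period III (adjusted p = 0.000105) and was not called in period II (0.07, adjusted p = 0.644), unless taken relative to the array median (0.30, adjusted p = 0.0357). ATP6V1C2 and ATP6V1G2 did not reach the level needed for a test in periods I and II, and in period III 1 probe-set of ATP6V1G2 was tested and not called (0.34, adjusted p = 0.202).

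In the membrane sector ATP6V0D2, the second isoform of subunit d, differed most from its relative ATP6V0D1. ATP6V0D2 (Ssc.22164.1.S1_at) averaged 7.77 ± 0.68, 8.55 ± 0.75, 4.38 ± 1.96 and 3.78 ± 1.64 at 94 dpc, 1 dpn, 28 dpn and 188 dpn (SD, n = 16, 16, 15 and 16), and was above background on 15, 15, 4 and 0 arrays. It rose by 0.78 in period I (SE 0.24, adjusted p = 0.00671) and fell in period II (adjusted p = 8.64e-09). Adults were at least 4.39-fold lower than fetuses and at least 7.53-fold lower than newborn piglets, taking background in place of a lower signal on each adult array. ATP6V0E1, a small membrane subunit, rose by 0.26 in period I and by 1.02 in period II (adjusted p = 0.00266 and 9.09e-16). Its arrays at 28 and 1 dpn did not overlap (4.95% of all probe-sets for a rise). ATP6V0C, which builds the turning ring of the membrane sector, rose by 0.42 in period II (adjusted p = 1.6e-05), and this ended after quantile normalization (0.10, adjusted p = 0.224). ATP6V0A4, an isoform of subunit a like TCIRG1, was above background on 3 to 6 arrays of a stage and was not tested.

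Of the 13 genes for assembly and regulation 7 were on the array, and 5, 5, 4 and 4 were tested in periods I, II and III and over the whole span. Of these 1 was higher and 1 lower in period I, 3 and 2 in period II, 1 and 1 in period III, and 2 and 2 over the whole span. Of all probe-sets 22.9% were higher and 34.0% lower in period I, and 28.8% and 42.9% in period II. In period III the shares were 12.3% and 22.5%. Over the whole span they were 27.0% and 53.1%, and relative to the array median 42% and 36.4%. With the probe-sets of a gene averaged, 1 was higher and 3 lower both in period II and over the whole span, and relative to the array median 2 and 0 over the whole span. DMXL2 and NCOA7 did not reach the level needed for a test. VMA21, a chaperone that assembles the membrane sector in the endoplasmic reticulum, stood apart by size. Its probe-set Ssc.21641.1.A1_at averaged 8.78 ± 0.26, 10.02 ± 0.31, 11.60 ± 0.17 and 11.90 ± 0.23 at 94 dpc, 1 dpn, 28 dpn and 188 dpn (SD, n = 16, 16, 15 and 16). It rose in each period, by 1.24, 1.57 and 0.30 (adjusted p = 6.91e-12, 3.04e-15 and 0.00326), and the arrays did not overlap in periods I and II (1.85% and 4.95% of all probe-sets for a rise). Its other probe-set (Ssc.16709.1.A1_at) rose by 0.42 in period I and 0.54 in period III (adjusted p = 6.93e-05 and 0.00414), with 0.11 and no call in period II (adjusted p = 0.246). ATP6AP2, an accessory protein of the pump, fell by 0.55 in period II (adjusted p = 6.44e-05). CCDC115, another assembly factor, was lower in period II (adjusted p = 1.97e-06), with 6 of 15 arrays above background at 28 dpn and 16 of 16 at 1 dpn, so that the size of its fall was not measured. The probe-sets of TM9SF4 went both ways in period II, with 0.49 for Ssc.4143.1.A1_a_at, −2.01 for Ssc.4143.1.A1_at and −2.54 for Ssc.4143.2.S1_at (adjusted p = 2.88e-06, 7.91e-08 and 2.27e-16). ROGDI, a protein of a complex that helps to assemble the pump, fell by 0.73 in period I, rose by 0.47 in period II and fell by 0.28 in period III by its brighter probe-set (adjusted p = 1.42e-09, 1.32e-05 and 0.00754), the last fall ending relative to the array median (−0.17, adjusted p = 0.111).

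**Figure D5:**
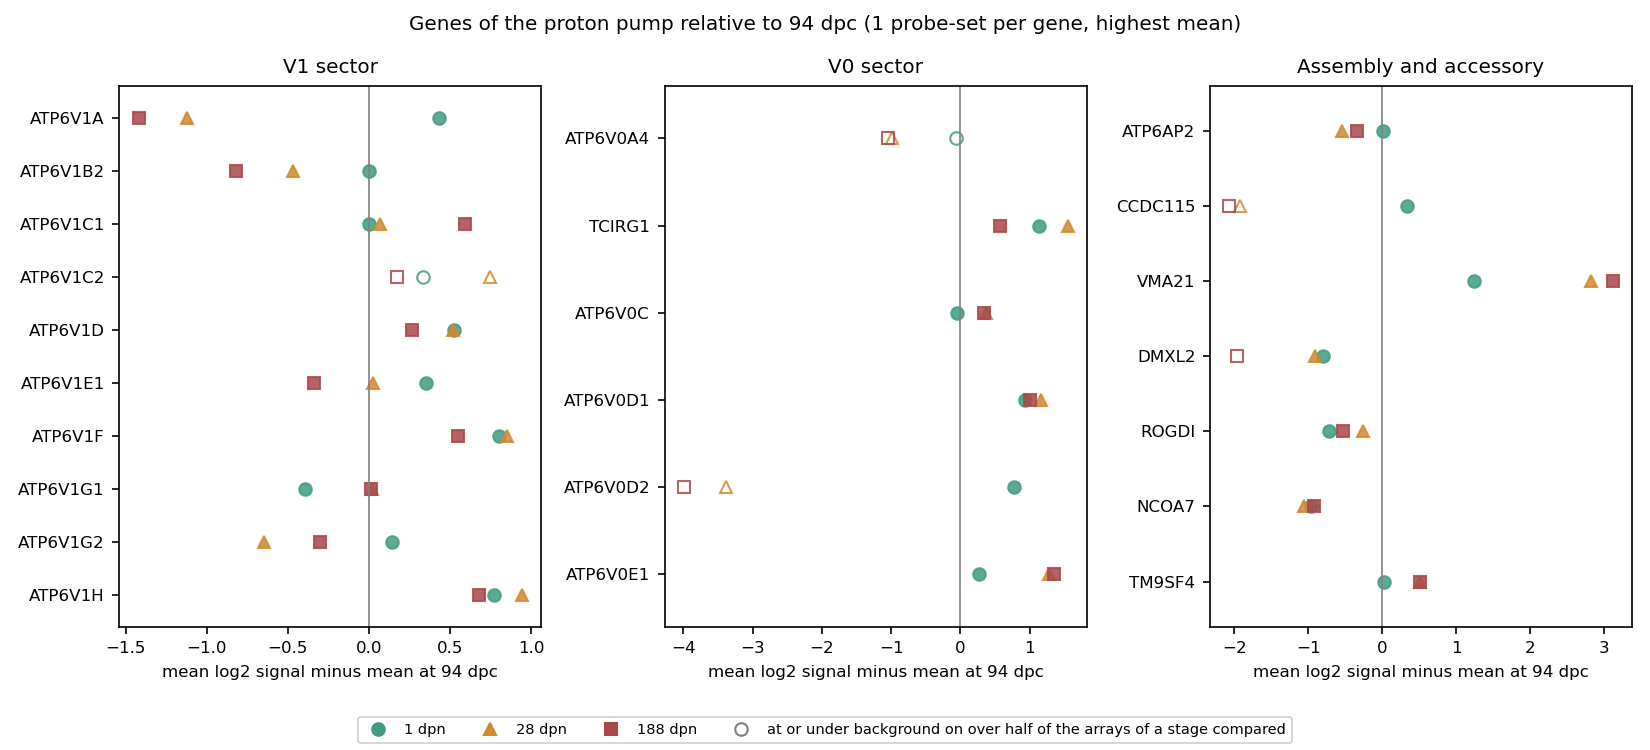
Mean log2 signal of every pump gene on the array minus its mean at 94 dpc, at 1 dpn (circles), 28 dpn (triangles) and 188 dpn (squares), with 1 probe-set per gene and a scale of its own for each panel. Open symbols mark genes at or under background on most arrays of that stage or of 94 dpc, where the distance from 0 is no measured size, as for ATP6V0D2 at 28 and 188 dpn.

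Of 21 lysosomal hydrolases 15 were higher and 2 lower in period II, with a median change of 0.70, beside 28.8% higher and 42.9% lower and a median of −0.14 among all probe-sets tested. In period I 7 hydrolases were higher and 6 lower (22.9% and 34.0% of all probe-sets), and in period III 1 and 7 (12.3% and 22.5%). The 3 largest changes of period II were those of GUSB, which removes glucuronic acid (2.19), and the cathepsins CTSZ (1.81) and CTSH (1.60), all higher at 28 dpn with adjusted p of at most 1.51e-10. Among 10 genes of lysosomal channels and membrane 4 were higher and 2 lower in period II, among them NPC2, which hands over cholesterol (1.18), and LAMP1, a coat protein of the membrane (0.97). CTNS, the cystine carrier, was lower (adjusted p = 3.8e-06), and since its mean of 5.52 at 28 dpn lay under the mean background of 5.65, the size of its fall was not measured. Of 9 regulators 5 were higher and 3 lower, led by MITF (−1.44) and TFEB (0.81), which switch on lysosomal genes, and by LAMTOR5 (0.72), of the complex that docks nutrient signalling to the lysosome. The V1 members did not share the rise of the hydrolases on the deposited scale, with changes of −0.01, 0.05 and 0.17 in period II.

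The mitochondrial ATP synthase, the other rotary proton machine, was set beside the pump because the study lists both under oxidative phosphorylation. Of its 13 genes 8 were higher and 0 lower in period I, 3 and 2 in period II, 0 and 2 in period III, and 11 and 2 over the whole span. The shares of all probe-sets were 22.9% and 34.0%, 28.8% and 42.9%, 12.3% and 22.5%, and 27.0% and 53.1%. Relative to the array median the ATP synthase genes were 10 and 0, 6 and 1, 2 and 2, and 11 and 1, and after quantile normalization 9 and 1, 2 and 6, 0 and 7, and 5 and 4. The largest changes of period II were those of ATP5PF (−0.76), ATP5F1E (0.55) and ATP5MG (0.53). Member probe-sets and ATP synthase genes were thus both mostly higher at 1 dpn than at 94 dpc, under each scaling. Of all probe-sets tested in period I, 28.4% were higher and 27.4% lower relative to the array median, and 26.9% and 28.7% after quantile normalization. In period II these shares were 39.5% and 32.8%, and 36.5% and 34.3%. In period III they were 19.1% and 14.9%, and 15.8% and 18%. Over the whole span they were 42% and 36.4%, and 38.4% and 39.7%.

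Pearson correlation over the 63 arrays, after the array median was subtracted, placed other genes close to each member. Such values share the stages and the quality of the arrays and are descriptions over 7365 candidate probe-sets. ATP6V1D was most like GLRX (r = 0.895), CD47 (0.886) and SEC11A (0.885), ATP6V1F like PSMB4 (0.934), TIMM8B (0.925) and PSMB3 (0.92), and ATP6V1H like VCP (0.947), RNF10 (0.939) and LONP2 (0.934). ATP6V0D1 by its first probe-set was most like MPDU1 (0.96), C2H19orf70 (0.955) and PSMB3 (0.951), and TCIRG1 like TAPBP (0.876), IDH2 (0.874) and PSMB10 (0.873). With the stage means subtracted, the closest were GALK2 for ATP6V1D (0.652), FBL for ATP6V1F (0.749), LONP2 for ATP6V1H (0.703), DDOST for ATP6V0D1 (0.81) and GLTP for TCIRG1 (0.629). The names depended on the subtraction of the median, which falls with age. Without it ATP6V1D was most like PSMA2 (0.734), SEC11A (0.726) and PON2 (0.692), ATP6V1F like PSMB4 (0.849), LITAF (0.847) and NMT1 (0.839), and ATP6V0D1 like MPDU1 (0.912), LRG1 (0.901) and NDUFB7 (0.895), while ATP6V1H and TCIRG1 had the same 3 genes as before.

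Among the members themselves the highest value over the arrays was that of ATP6V1H with the first probe-set of ATP6V0D1 (r = 0.903) and the lowest that of the second probe-sets of ATP6V0D1 and TCIRG1 (0.2). Within stages the values were between 0.0161 and 0.54. The probe-sets of ATP6V0D1 had r = 0.516 within stages and those of TCIRG1 0.441, so animals with a high signal by one probe-set tended to have a high signal by the other.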

How the data were processed

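The deposited values are log2 signals of 24123 probe-sets on 63 arrays, all of them samples of the series. The submitters' processing notes name GCOS 1.1.1, and the linear signals of each array had a mean between 500.1 and 500.2 once 2% was trimmed from either end. The GCRMA values of the study's methods are another scale, and its mixed model needs sex and mother, which the labels do not give. The 188 controls were set aside. The platform annotation gave 10069 probe-sets a single symbol, 198 several and 13668 none.

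Each comparison was fitted on its stages alone with limma 3.58.1 (lmFit, eBayes, two-sided) in R 4.3.3 and adjusted after Benjamini-Hochberg. A probe-set was tested where, at either stage, 50% or more of the arrays had it beyond their 50th percentile. Within-array differences were tested by permutation with 100000 resamples. The fit was tested on simulated data.

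Members and lists were chosen with earlier results of these data known. All members and pump genes on the array were to be named, from each other list the 3 largest called changes of period II, and the 3 closest genes per member. Per gene, lists use the probe-set with the highest mean. Alternatives were no filter, a filter at the 75th percentile, quantile normalization, centring, a joint fit of all arrays, array weights, a trended prior variance, a Wilcoxon test, an adjusted p under 0.01, the added-RNA difference as covariate, and replicate 6, or 6 and 13, of 94 dpc left out. The added-RNA clusters were chosen after seeing the data. No sequences or coordinates were used here.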

Additional observations from a re-analysis of the deposited data

How the results depend on the processing

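The 6 higher and 1 lower member calls of period I stood under every alternative except the added-RNA difference as covariate, where 0 and 0 remained, as did 0 higher and 2 lower of all probe-sets. That covariate does not overlap between these stages. In period II the 3 higher and 1 lower member calls became 6 and 0 on centring and 0 were lower after quantile normalization, and the change of ATP6V1D turned to 0.062 (quantile, adjusted p = 0.497) and 0.22 (centred, adjusted p = 0.0185). In period III the 5 lower member calls became 3 without a filter, 3 after quantile normalization, 1 on centring and 2 at an adjusted p under 0.01. Over the whole span the 7 higher calls lost at most 2, those of ATP6V1D and TCIRG1 Ssc.18272.2.S1_at, with the added-RNA covariate (adjusted p = 0.0732 and 0.158) and at an adjusted p under 0.01. Of all probe-sets, the filter at the 75th percentile left 2458, 2662, 1699 and 3376 lower in periods I, II and III and over the whole span, and 10891 were lower over the whole span without a filter. Centring gave 2372 higher and 1848 lower in period III and 5616 higher over the whole span. The cause of these shifts was not tested. All 6 changes of the within-array differences kept their side of the threshold in limma.

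The number of arrays limits the precision. Leaving out replicate 6 at 94 dpc, whose macrophage sum of 12.57 was the lowest, changed no member call. Sibs, sex and weight could not be modelled.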
